A study of Caenorhabditis elegans with 2 samples.

Results

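Peaks of the T-box transcription factor TBX-9 were described at 10 of the 19985 protein-coding genes of Caenorhabditis elegans: the heat shock protein genes hsp-1, hsp-3, hsp-4, hsp-6, hsp-60, hsp-70, hsp-110, F44E5.4 and F44E5.5, and the cochaperone gene dnj-13. A peak was assigned to a gene when its summit lay within 1000 bp of a transcript start or inside the gene. The genes were chosen by the signal and rank of their peaks in these same lists, with earlier results in view, so the ranks below describe the genes and no test was made on them. Chromatin immunoprecipitation and sequencing with an anti-GFP antibody was done on 2 biological replicates of 1 group, and there was no second condition. The animals were whole young adults of mixed sex from strain OP636, genotype unc-119(tm4063) III; wgIs636, collected 63 hours after synchronization as starved L1 larvae, and their chromatin was broken by sonication. The integrated transgene wgIs636 carries TBX-9 with GFP and FLAG at its C terminus, so the peaks are those of a tagged protein from a transgene, over all tissues at once. The labels also point to a possible control experiment, which was not used. No read counts were used, so the depth of each library is unknown.

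The authors deposited relaxed peak lists, which by design also hold background, for each replicate and for the pooled reads, and an optimal list past the irreproducible discovery rate (IDR) threshold. On build ce11 the pooled list held 30000 peaks, replicate 1 had 25659 and replicate 2 had 30000. Of the IDR peaks, 167 overlapped a pooled peak, at a median pooled rank of 106, and 2 did not. The signal of a peak is the authors' value, its scaling is not stated, and it is given here only beside the peak's rank within its own list (rank 1 is the strongest). In the pooled list 10 peaks were mitochondrial and in replicate 1 there were 14, of which 9 and 13 stood above every nuclear peak. Replicate 2 had 0 mitochondrial peaks.

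Hsp70 proteins hold and refold unfolded polypeptides in cycles of ATP binding and hydrolysis. J-domain proteins such as DNJ-13 bring them clients and start hydrolysis, and exchange factors, among them Hsp110 proteins, release the nucleotide. Separate Hsp70s serve the cytosol, the endoplasmic reticulum and the mitochondrion, and the Hsp60 chaperonin folds proteins inside the mitochondrion. Heat-inducible chaperone genes are driven by heat shock factor HSF-1, which binds heat shock elements, arrays of GAA and TTC units in alternating orientation. T-box factors bind a different core, GGTGTGA.

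The 4 windows printed here are those of the IDR peaks at the members, 100 bp on each side of the summit, because these are the sites past the IDR threshold. Capitals mark GAA and TTC units that stand 2 bp apart in opposite orientation (GAANNTTC or TTCNNGAA, both palindromic, so that each match is on both strands, and matches may overlap). All are the plus strand, 5′ to 3′, from the RefSeq sequence of WBcel235 (ce11).
F44E5.4 and F44E5.5, chrII:11759369-11759569: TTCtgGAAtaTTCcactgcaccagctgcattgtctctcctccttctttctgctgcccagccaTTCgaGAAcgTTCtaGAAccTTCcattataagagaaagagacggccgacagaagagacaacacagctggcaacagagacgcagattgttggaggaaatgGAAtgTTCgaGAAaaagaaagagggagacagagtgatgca
dnj-13, chrII:11545408-11545608: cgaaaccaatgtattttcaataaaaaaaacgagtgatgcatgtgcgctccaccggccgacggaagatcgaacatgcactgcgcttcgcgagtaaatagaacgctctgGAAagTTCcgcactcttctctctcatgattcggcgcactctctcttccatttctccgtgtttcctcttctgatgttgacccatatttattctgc
hsp-60, chrIII:1619012-1619212: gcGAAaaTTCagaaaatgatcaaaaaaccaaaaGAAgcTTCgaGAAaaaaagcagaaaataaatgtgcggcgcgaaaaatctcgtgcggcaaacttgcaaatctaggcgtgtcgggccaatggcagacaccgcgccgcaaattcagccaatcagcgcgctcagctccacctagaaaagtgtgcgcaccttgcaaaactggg
hsp-1, chrIV:17278431-17278631: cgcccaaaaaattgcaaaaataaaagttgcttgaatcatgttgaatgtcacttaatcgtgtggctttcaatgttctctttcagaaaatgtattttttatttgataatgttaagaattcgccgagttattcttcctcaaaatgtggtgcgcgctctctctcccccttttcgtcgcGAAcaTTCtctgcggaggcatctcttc
The window between F44E5.4 and F44E5.5 held 8 such pairs, that of hsp-60 held 3, and those of dnj-13 and hsp-1 held 1 each. The pair of dnj-13 lay 11 bp from the summit and that of hsp-1 lay 78 bp from it.

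All 10 genes had a peak in the pooled, replicate 1 and replicate 2 lists. Peaks were common in these long lists, where 63.8% of all coding genes had one in the pooled list, 59.8% in replicate 1 and 65.2% in replicate 2. The 10 genes differed more in how strong their peaks were. The median rank of the strongest peak was 858 in the pooled list for the 10 genes, against 9905 for all coding genes with a peak. In replicate 1 the medians were 688 for the 10 genes and 8779 for all coding genes, and in replicate 2 they were 462 and 9915.5. A shared peak counts once for each of its genes in these medians, as the 1 peak of F44E5.4 and F44E5.5 does. Longer genes can hold more peaks; the median gene length was 2453 bp for the 10 genes and 2026 bp for all coding genes. The IDR list held a peak for 5 of the 10 genes (4 peaks, 1 of them shared), against 0.721% of all coding genes. Since these peaks chose the genes, the shares are read as a description alone.

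**Figure D1:**
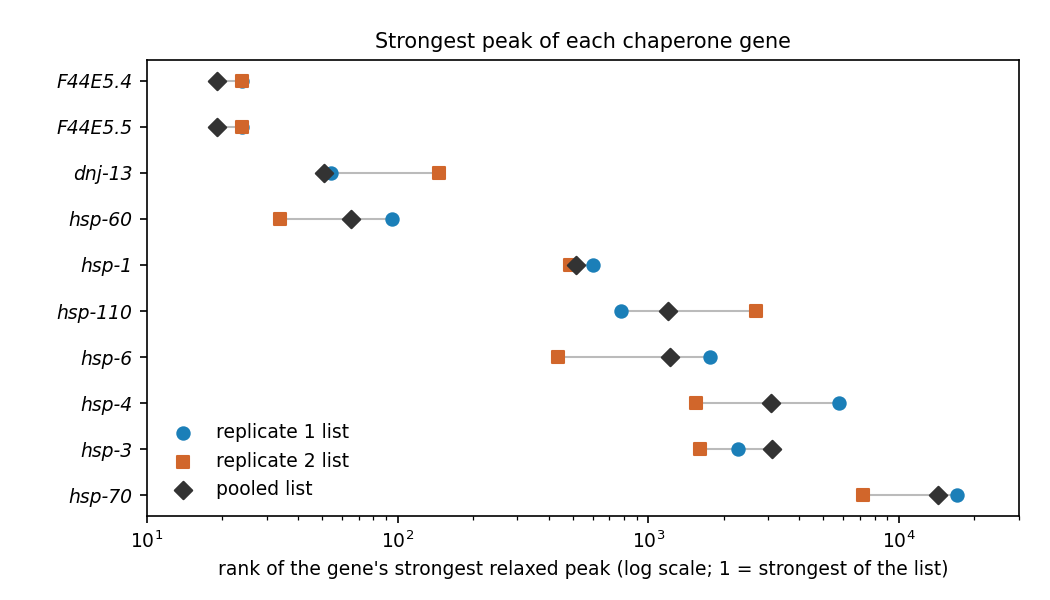
Rank of the strongest relaxed peak of each gene on a log scale, in the pooled list (diamonds), replicate 1 (circles) and replicate 2 (squares); the grey line spans the 3 ranks. F44E5.4 and F44E5.5 share 1 peak at ranks 19, 24 and 24, with the replicate symbols on top of each other, and hsp-70 has no peak above rank 7222.

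Among the cytosolic Hsp70 genes, the pair F44E5.4 and F44E5.5, which encode heat-inducible Hsp70s, had the strongest peak. The pair is divergent: F44E5.4 (WBGene00009691, chromosome II, 11757107 to 11759311, minus strand) and F44E5.5 (WBGene00009692, chromosome II, 11759662 to 11761861, plus strand) face away from each other across 350 bp. A single peak in that spacer was the strongest of both genes. It had signal 180.2 and rank 19 in the pooled list, signal 115.6 and rank 24 in replicate 1, and signal 63.0 and rank 24 in replicate 2. In the IDR list it had signal 178.4, rank 15 and a q-value of 0.0467, with its summit 158 bp upstream of the F44E5.4 start and 193 bp upstream of the F44E5.5 start. The replicate ranks were equal only with mitochondrial peaks counted. Among nuclear peaks alone the site ranked 11 in replicate 1 and 24 in replicate 2. The summits in the replicates were 8 bp apart.

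The sequence of both genes is largely repeated. Inside F44E5.4, 98.2% of all 31-base stretches occur elsewhere in the genome too, and inside F44E5.5 98.1% do. Their coding sequences are identical over 1935 of 1935 bases. The other 8 genes had between 0% and 3.16%. No relaxed list held a peak inside either gene. The pooled peak was 216 bp wide, and those of replicates 1 and 2 were 183 and 143 bp, where 390 bp is the usual width and 0.107% of pooled peaks were narrower. Of the 31-base stretches in the pooled peak, 2.69% were repeated, against 28.3% in the wider IDR peak. Whether the repeated sequence set the width or the signal was not tested. The whole spacer, 46.9% G or C, held 14 GAA and TTC pairs and 10 runs of 3 alternating units, overlapping ones counted. Windows with 8 or more pairs were rare, 41 of 30000 pooled windows, but some held far more. The most in a pooled window was 32, and an IDR window outside the 10 genes, at rank 84, held 26.

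hsp-1 (WBGene00002005, chromosome IV, 17278959 to 17281330, plus strand) encodes the constitutive cytosolic Hsp70. Its IDR peak had signal 118.0, rank 116 and a q-value of 0.0649, 428 bp upstream of the start. At that site the pooled peak ranked 516 with signal 67.2, and the replicate peaks ranked 1184 in replicate 1 and 489 in replicate 2. The strongest replicate 1 peak of the gene was elsewhere, at rank 601 (signal 41.9), 1639 bp from the strongest replicate 2 peak (rank 489, signal 33.2). It lay in an intron, 145 bp from the start of the snoRNA gene F26D10.24 at its pooled summit, and replicate 2 had the site only at rank 26246. A further intron peak ranked 1062 in the pooled list, 2606 in replicate 1 and 876 in replicate 2. The promoter summit lay 118 bp from the start of the noncoding gene F26D10.23 and 994 bp from the start of clec-196, a C-type lectin domain gene.

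hsp-70 (WBGene00002026, chromosome I, 9320325 to 9322519, minus strand), a heat-inducible Hsp70 gene, had the weakest peaks of the 10 genes. Its strongest pooled peak had signal 25.6 and rank 14312, close to the pooled median signal of 25.1, and its strongest peaks in the replicates had signal 16.51 and rank 17121 in replicate 1 and signal 16.8 and rank 7222 in replicate 2. All 3 of its pooled peaks lay in coding exons, and replicate 1 had none of them within 200 bp. Its protein was 87.6% identical to that of F44E5.4, the highest identity among the Hsp70 and Hsp110 proteins after the identical pair, against 70.9% between HSP-1 and F44E5.4. The gene with the weakest peaks is therefore the closest relative of the pair with the strongest.

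**Figure D2:**
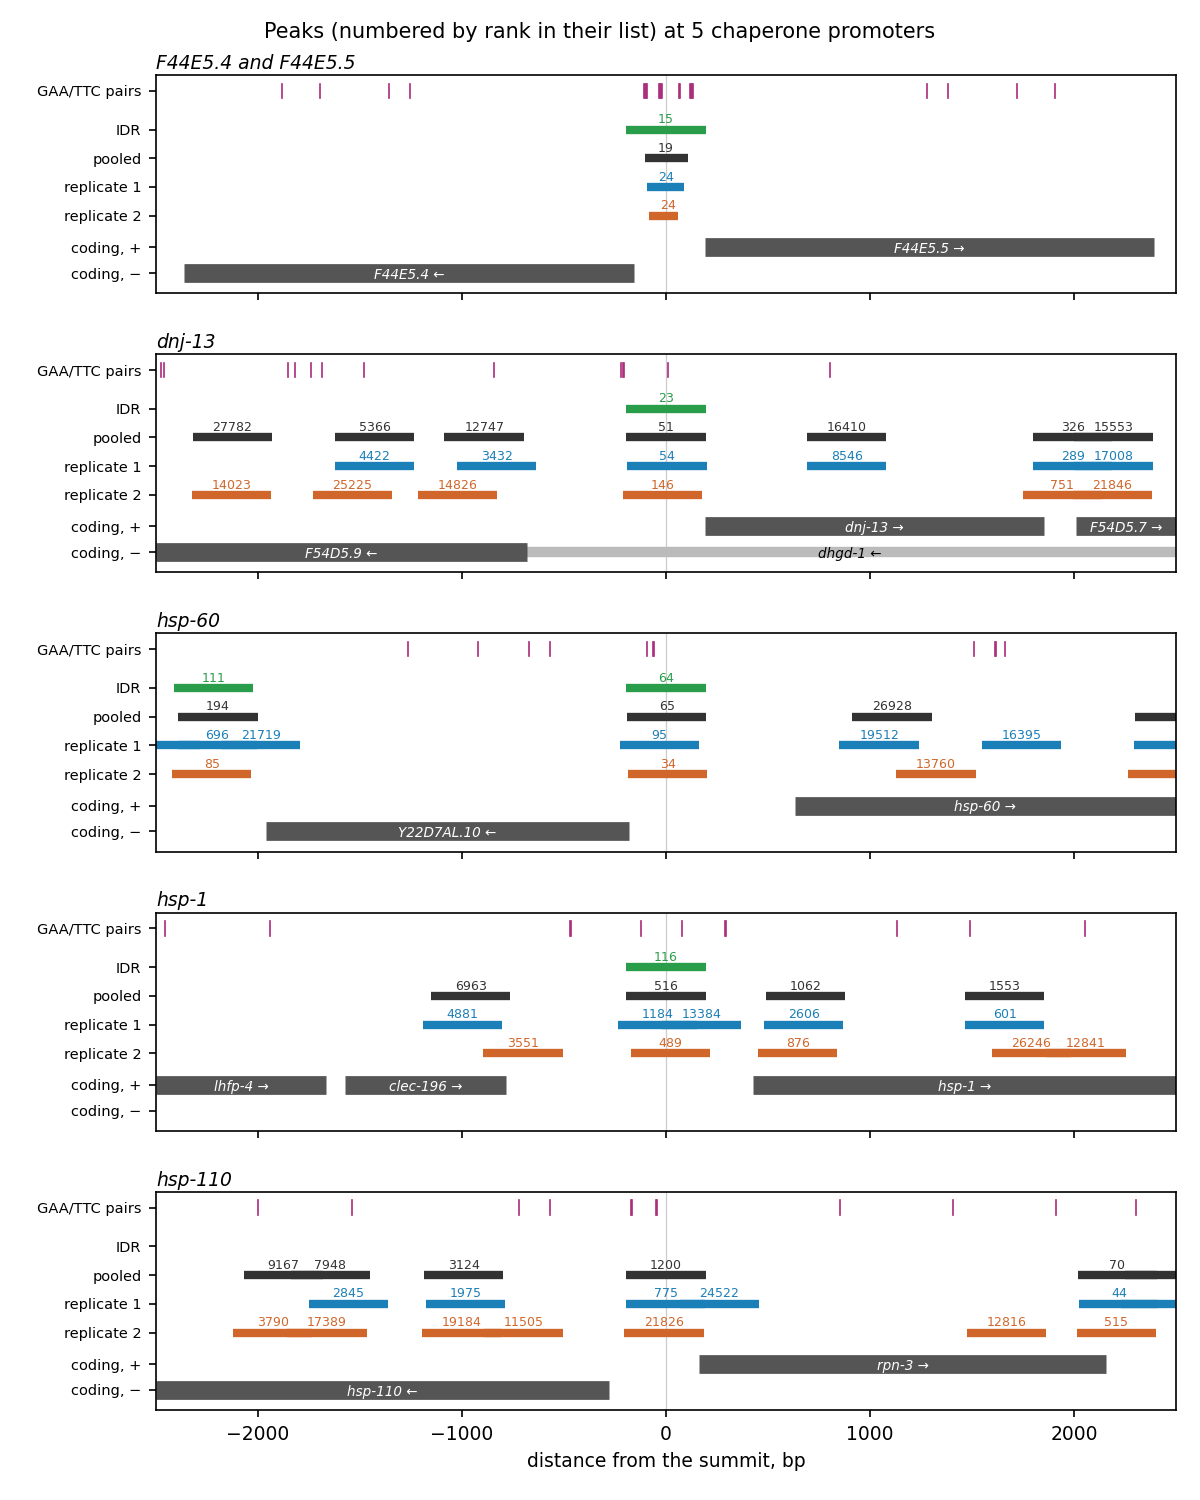
Maps of 5 promoters, drawn by distance in bp from the IDR summit (for hsp-110, from the pooled summit), with peaks of the 4 lists numbered by rank, coding genes by strand, and a tick for each GAA and TTC pair. The ticks cluster under the shared F44E5.4 and F44E5.5 peak, and the peaks of dnj-13, hsp-60 and hsp-110 also lie by the start of another gene or in its intron.

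The cochaperone gene dnj-13 (WBGene00001031, chromosome II, 11545701 to 11547360, plus strand) had the second strongest IDR peak of the 10 genes, with signal 165.7, rank 23 and a q-value of 0.0467. It lay 193 bp upstream of the start. The peak ranked 51 in the pooled list with signal 130.1, 54 in replicate 1 with signal 82.6, and 146 in replicate 2 with signal 45.6. It ranked higher in replicate 1 than in replicate 2, and the replicate summits were 22 bp apart. The summit also lay in an exon of the noncoding gene F54D5.22, in an intron of dhgd-1, a D-2-hydroxyglutarate dehydrogenase gene, and 680 bp from the start of the F-box gene F54D5.9. Which of these genes the site belongs to cannot be told from its position.

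hsp-60 (WBGene00002025, chromosome III, 1619742 to 1625803, plus strand, 4 annotated starts) encodes the mitochondrial chaperonin. Its IDR peak had signal 133.9, rank 64 and a q-value of 0.0866. The same site ranked 65 in the pooled list with signal 123.6, 95 in replicate 1 with signal 68.0, and 34 in replicate 2 with signal 59.8. The IDR summit was 630 bp upstream of hsp-60 and closer to another start, 183 bp upstream of Y22D7AL.10 on the other strand. Y22D7AL.10 is annotated as the mitochondrial 10 kDa heat shock protein, the partner that closes the Hsp60 chamber, so genes for both parts of the chaperonin flank this peak.

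The other mitochondrial gene, hsp-6 (WBGene00002010, chromosome V, 4824124 to 4826760, minus strand), encodes mitochondrial Hsp70. Its strongest pooled peak, in a coding exon, had signal 52.5 and rank 1217. The strongest replicate peaks had signal 32.1 and rank 1770 in replicate 1 and signal 34.03 and rank 435 in replicate 2, and they did not overlap. The peak upstream of its start ranked 5272 in the pooled list, 10893 in replicate 1 and 10869 in replicate 2. None of its peaks by the distance rule was in the IDR list.

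hsp-110 (WBGene00016250, chromosome III, 8443910 to 8446909, minus strand) encodes the Hsp110 member. Its promoter peak had signal 52.7 and rank 1200 in the pooled list and signal 39.3 and rank 775 in replicate 1, but rank 21826 in replicate 2. The replicate 2 maximum, signal 22.02 and rank 2684, lay in the 3′ untranslated region, 3201 bp away from the replicate 1 site. The promoter summit was 280 bp upstream of hsp-110 and 164 bp upstream of rpn-3, which encodes a subunit of the proteasome. Its window held 2 GAA and TTC pairs with 1 run of 3 units.

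Of the endoplasmic reticulum Hsp70s, hsp-3 (WBGene00002007, chromosome X, 6089028 to 6092124, minus strand) and hsp-4 (WBGene00002008, chromosome II, 7350112 to 7352645, minus strand) are the BiP homologues, and hsp-4 is the one induced by the unfolded protein response. For both genes the strongest peak was at a different site in each replicate. The strongest pooled peak of hsp-3, in an intron, had signal 40.8 and rank 3114. Within 200 bp of its summit replicate 1 had a coding exon peak at rank 5104. Replicate 2 had a coding exon peak there at rank 1611 (signal 24.9), the replicate 2 maximum of the gene. The replicate 1 maximum, signal 30.1 and rank 2290, lay in a coding exon 1162 bp from it. The strongest pooled peak of hsp-4, in a coding exon, had signal 40.9 and rank 3098. Within 200 bp of its summit replicate 1 ranked 9405 and replicate 2 ranked 3256. The replicate 1 peak at rank 9405 was also within 200 bp of the pooled hsp-4 peak at rank 3590. The replicate maxima of hsp-4 were a 3′ untranslated region peak in replicate 1 (signal 23.7, rank 5745) and a coding exon peak in replicate 2 (signal 25.1, rank 1548), 608 bp apart. Their proteins were 85.5% identical.

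Set in order by pooled rank, the genes ran F44E5.4 and F44E5.5, dnj-13, hsp-60, hsp-1, hsp-110, hsp-6, hsp-4, hsp-3 and hsp-70. The ranges of replicate ranks overlapped between dnj-13 and hsp-60. They also overlapped between hsp-110 and hsp-6, hsp-6 and hsp-4, and hsp-4 and hsp-3, so all these neighbours are not separated. The range of hsp-1, 489 to 601, did not overlap that of hsp-110 (775 to 2684) but did overlap that of hsp-6. Each range spans only 2 ranks, and for hsp-1 and hsp-110 these come from different sites in the replicates. At its promoter site hsp-1 ranked 1184 in replicate 1 and 489 in replicate 2, which overlaps the hsp-110 range. The ranges of F44E5.4 with F44E5.5, at the strong end, and of hsp-70, at the weak end, overlapped with no other. The deposited q-value of the strongest pooled peak was 0.0137 for F44E5.4, F44E5.5, dnj-13, hsp-60 and hsp-1, 0.0221 for hsp-110 and 0.0234 for hsp-6. It was 0.141 for hsp-4, 0.142 for hsp-3 and 0.711 for hsp-70. The value 0.0137 is the lowest in the pooled list, so it does not tell the genes that have it apart. In the IDR list 0.0467, given above for F44E5.4, F44E5.5 and dnj-13, is likewise the lowest. The IDR q-values did not always follow rank, with 0.0866 for hsp-60 at rank 64 and 0.0649 for hsp-1 at rank 116. Among the 500 strongest peaks of both replicates were the strongest peaks of 4 genes, F44E5.4, F44E5.5, hsp-60 and dnj-13, against 0.996% of all coding genes. F44E5.4 and F44E5.5 were counted separately, though they share 1 peak. The same 4 genes were in the pooled top 500, against 2.2% of all coding genes. At the 1000 strongest hsp-1 joined them, with different sites in the replicates. The strongest replicate 1 and replicate 2 peaks overlapped for these 4 of 10 genes, with summits 8 to 41 bp apart.

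The 30 pooled peaks of the 10 genes fell 17 times in coding exons, 6 times upstream, 4 times in introns and 3 times in 3′ untranslated regions. Of the 30, 20 had a peak within 200 bp in both replicates (66.7%), against 8548 of all 30000 pooled peaks (28.5%), and 5 had one in replicate 1 alone and 5 in replicate 2 alone. The genes were chosen by their peaks in these lists and the shares were not matched for rank, so they are a description alone. The strongest pooled peak lay upstream for 6 genes and in the gene for 4. The 3 most highly ranked sites were all upstream. Just inside the limit of 1000 bp, the farthest upstream summit was that of hsp-60, at 626 bp in the pooled list. Just outside were summits at 1084 bp from dnj-13 (rank 12747), at 1385 bp from hsp-1 (rank 6963) and at 1385 bp from hsp-3 (rank 5811).

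**Figure D3:**
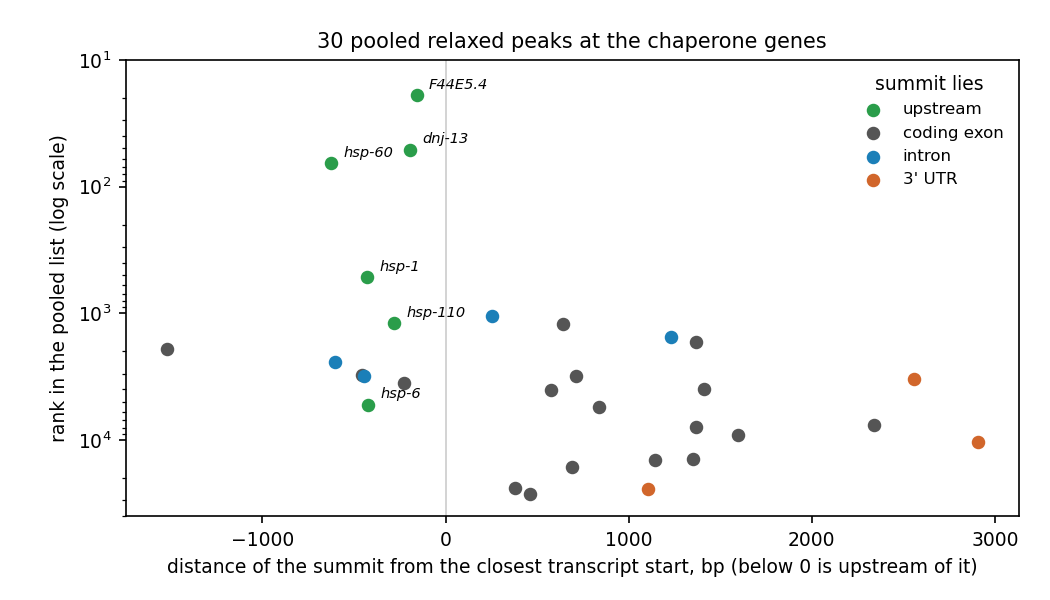
Rank in the pooled list (log axis, 1 at the top) against distance of the summit from the closest transcript start in bp, for the 30 pooled peaks of the 10 genes, coloured by where the summit lies. The strongest 4 sites (ranks 19 to 516) are upstream, and the best rank in a coding exon is 1217, at hsp-6.

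**Figure D4:**
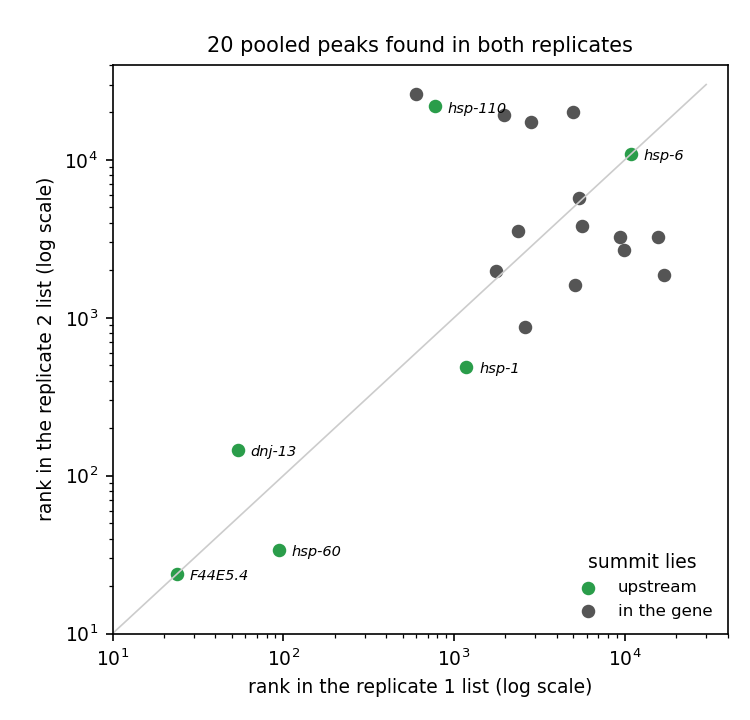
Rank in replicate 1 against rank in replicate 2, both on log axes, for the 20 pooled peaks of the 10 genes found within 200 bp in both replicates; the line marks equal ranks. F44E5.4, dnj-13 and hsp-60 lie at the lower left, while hsp-110 ranks 775 in replicate 1 and 21826 in replicate 2.

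Past the 3′ end, where the distance rule does not count them, 5 of the 10 genes had a pooled peak stronger than any the rule gives, which held within both replicates for hsp-1 alone. These sites were looked at after their values were seen. The IDR list held a summit 56 bp past the end of hsp-1 (signal 157.8, rank 31), 72 bp past hsp-60 (signal 155.6, rank 36) and 133 bp past hsp-6 (signal 114.3, rank 131). These are 3 of 10 genes, against 0.275% of all coding genes with an IDR summit 1 to 250 bp past the end. For hsp-1 and hsp-60 the 3′ peak ranked higher in the IDR list than the promoter peak. The hsp-6 site was also 568 bp from the start of adss-1, which encodes adenylosuccinate synthetase, and the hsp-60 site was 757 bp from that of Y22D7AL.4.

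In the pooled list, 7 of the 10 genes had a summit in that 250 bp. Those of hsp-1 (rank 35), hsp-60 (46), hsp-6 (107), hsp-110 (287) and dnj-13 (326) were among the 500 strongest, against 0.771% of all coding genes. Those of F44E5.4 (928) and hsp-3 (1772) were weaker. Some of these summits also lay near the start of another gene or inside one. The pooled hsp-1 summit, 175 bp past the end, lay in the 3′ untranslated region of nra-1, as did the replicate 2 summit. The strongest replicate 1 summit and the IDR summit there lay in no other gene. The hsp-3 summit, 111 bp past the end, was 941 bp from the start of C45B2.8. The dnj-13 summit, 142 bp past the end, was 15 bp upstream of F54D5.7, that of hsp-110, 108 bp past the end, was 195 bp upstream of ufbp-1, and that of F44E5.4, 221 bp past the end, was 101 bp from the start of the noncoding gene F44E5.16. The replicates gave ranks of 32 and 14 for hsp-1, 56 and 78 for hsp-60, 59 and 821 for hsp-6, 289 and 751 for dnj-13, and 2159 and 5537 for hsp-3, in each case replicate 1 first. At hsp-110 replicate 1 ranked 109, and the nearest replicate 2 summit, at rank 2684, was 185 bp from the pooled one and inside the 3′ untranslated region. It is the replicate 2 maximum of the gene by the rule. At F44E5.4 replicate 2 ranked 743, and the nearest replicate 1 summit ranked 2870, 112 bp from the pooled one. For hsp-1, hsp-60, hsp-6, hsp-110 and hsp-3 the site past the end ranked above every peak the rule gives in the pooled list and in replicate 1. In replicate 2 this held for hsp-1 only. There the peaks past the end of hsp-60, hsp-6 and hsp-3 ranked below the rule's best ranks of 34, 435 and 1611, and hsp-110 had no summit past its end. Within 100 bp of these 7 pooled summits lay 2 GAA and TTC pairs at hsp-110, 1 at hsp-60, 1 at F44E5.4 and 0 at hsp-1, hsp-6, dnj-13 and hsp-3.

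**Figure D5:**
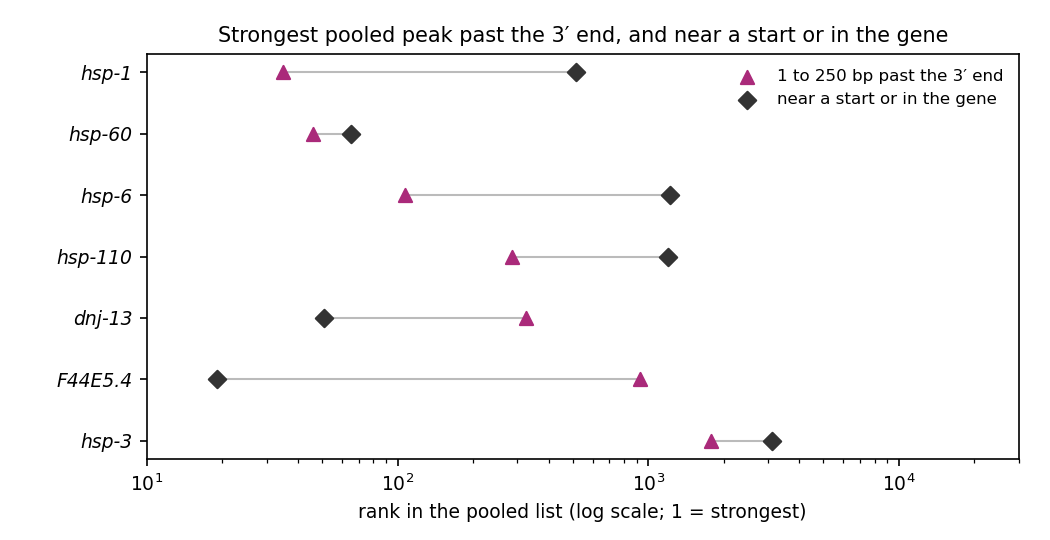
Rank in the pooled list (log scale) of the strongest peak 1 to 250 bp past the 3′ end (triangles) and of the strongest peak near a start or in the gene (diamonds), for the 7 genes with the first. The triangle lies left of the diamond, and so ranks higher, for 5 genes, and right of it for dnj-13 and F44E5.4; within replicate 2 the order held for hsp-1 only.

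The GAA and TTC pair was set against other windows. It was within 100 bp of all 4 IDR summits at the members, against 34 of all IDR summits (20.1%) and 21.9% of pooled summits. Among the 30 pooled peaks of the members 10 had it (33.3%). Runs of 3 alternating units were in 2 of the 4 IDR windows, those of F44E5.4 with F44E5.5 and of hsp-60, against 8 of all IDR windows (4.73%) and 1.25% of pooled windows. The T-box core GGTGTGA, searched on both strands, was in 0 of the 4 windows and in 0 of all IDR windows, against 1.73% of pooled windows, and in 1 of the members' 30 pooled windows (3.33%). The median share of G and C was 47% in the members' 4 windows and 44.8% in all IDR windows. A match is a description of letters, and HSF-1 binding was not measured.

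Promoters, cut from 250 bp before to 50 bp after the start, held a pair at 7 of the 10 genes, against 32.5% of all coding promoters. Runs of 3 units were in 5 of the 10 promoters, those of F44E5.4, F44E5.5, hsp-110, hsp-70 and hsp-1, against 1.97% of all coding promoters. The windows of F44E5.4 and F44E5.5 overlap in their shared spacer, so these 2 promoters are not separate sequences in either count. The promoters of hsp-3, hsp-6 and hsp-60 held no pair, and GGTGTGA was in 0 of 10, against 2.3%. A run of units did not go with a strong peak in every case. The hsp-70 promoter held 3 pairs, while no pooled peak lay upstream of that gene and its upstream peak in replicate 1 was the one at rank 17121. Over all pooled peaks, runs of 3 units were in 2.4% of windows at ranks 1 to 500 (12 of 500), 1.4% at ranks 501 to 5000 and 1.2% at ranks 5001 to 30000. Pairs went the other way, in 18.6%, 20.6% and 22.2% of the windows in the same 3 ranges.

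Other chaperone and stress genes were counted from 6 lists of 94 names, 86 of which were found as coding genes. The IDR list held a peak for 1 of the 86, again against 0.721% of all coding genes, and 77 had a pooled peak. Y22D7AL.10, the mitochondrial 10 kDa heat shock protein gene that shares the hsp-60 peak, is not among the 86, since no list holds it by that name and the listed names hsp-10 and cpn-10 were not found. With it, chosen after its peak was seen, the IDR count is 2 of 87 and the pooled top 500 count given next is 5 of 87. The listed gene with an IDR peak was cct-8, which encodes a subunit of the cytosolic chaperonin and was 1 of 14 chaperonin and prefoldin genes, with an IDR signal of 125.5 and rank 87, 447 bp upstream, at a site shared with Y55F3AR.2 and Y55F3AR.4. The strongest peak of cct-8 ranked 71 in the pooled list, 69 in replicate 1 and 203 in replicate 2. The pooled top 500 also held bag-1, an Hsp70 exchange factor gene (290), dnj-20 (361) and dnj-9 (464), both J-domain genes, so 4 of 86 were there, against 2.2% of all coding genes. Of these, dnj-20 also had its strongest replicate peaks at ranks 364 and 36 in replicates 1 and 2. Its pooled peak lay in its 3′ untranslated region, at a site shared with hal-3. Whether the replicate peaks lie at that site was not checked. The 28 other J-domain genes and the 6 further Hsp70 and exchange factor genes had no IDR peak. The 12 small heat shock protein genes found had no IDR peak and a best pooled rank of 700, at sip-1. That summit lay past the end of sip-1, 776 bp from its start, at a site shared with urm-1, F43D9.8 and taf-11.3. The 12 Hsp90 and cochaperone genes also had no IDR peak and a best pooled rank of 754, at enpl-1. Among 14 stress regulators, with no IDR peak, daf-16 ranked 675 and the heat shock factor gene hsf-1 ranked 2394.

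By the log10 ranks in the 2 replicates, the coding genes most like F44E5.4 were ced-9 and mev-1, which share a peak at ranks 28 and 23 (distance 0.0695), and rpl-3 at ranks 22 and 30 (distance 0.104), replicate 1 first. This likeness rests on 2 samples, and ced-9 and mev-1 lie close to tbx-9 on chromosome III. The tagged gene tbx-9 itself (chromosome III, 10340006 to 10341858) had 1 IDR peak at rank 151, and its strongest peak ranked 236 in the pooled list, 1546 in replicate 1 and 363 in replicate 2.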

How the data were processed

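Per the deposited text files, the authors derived relaxed peaks from aligned library and control reads, and IDR peaks from the relaxed ones. The name of the aligner or peak caller is not given in the sources used here. Each signal value that the authors deposited has no stated scaling, so signals were ranked within a list and not compared across lists. The deposited −log10 q-value per peak was turned into q, and summits follow from the authors' offsets. The ce10 lists were not used. Ranks count all chromosomes. Coordinates count from 1 on ce11, with genes from Ensembl release 115 and sequence from RefSeq WBcel235; no peak ended beyond its chromosome (0 peaks). Promoter windows and protein identities were computed from that genome and annotation. A pair of relaxed peaks counted as the same site when summits were within 200 bp. Depth is unknown, so no counting intervals were given. The members, the gene lists and the alternatives were chosen with earlier results of these data known. Named were all 10 members, genes that share their IDR peaks, listed genes with an IDR or pooled top 500 peak, tbx-9, and the 3 coding genes closest to F44E5.4 in log10 replicate ranks; neighbours of other sites and best genes of lists were named after their values were seen. Scripts used Python 3.11.15, Biopython 1.88 and matplotlib 3.10.9 and were tested on simulated data.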

Additional observations from a re-analysis of the deposited data

How the results depend on the processing

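No paired analysis was possible because there is 1 group. Of 24 counts recomputed under an alternative, 20 stayed within 1.5 times the reported count and 4 moved. Counting summits within 250 bp of a start left 3 genes with an IDR peak, against 5 at 1000 bp. A window of 50 bp on each side left a GAA and TTC pair at 2 of the 4 IDR summits, and 3 alternating units were at 2. Taking as many of the strongest nuclear peaks of 1 replicate as the IDR list holds gave 4 genes without replicate 1 and 4 without replicate 2. Adding summits up to 250 bp past the gene end, chosen after seeing the data, gave 6. Adding Y22D7AL.10 to the other chaperone and stress genes, also chosen after seeing the data, gave 2 with an IDR peak in place of 1. Of 40 strongest ranks of single genes, 27 moved by no more than the standard deviation of the 2 replicate ranks and 13 by more. For F44E5.4 and F44E5.5, which share 1 peak with equal replicate ranks, any change at all counted as more. The replicate ranks were also among the alternatives, so this split does not measure how stable a rank is. With 2 replicates, no read counts and no control signal, the precision of a single rank is limited. Neighbouring starts within the same peak cannot be told apart.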
